A study of Homo sapiens with 12 samples.

Results

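A list of 38 genes of the endoplasmic reticulum (ER) was followed through RNA-seq of Hs 578T cells: its chaperones, the enzymes that form disulfide bonds in it, the machinery of ER-associated degradation (ERAD), and the sensors and transcription factors that answer to misfolded protein. The list was given by symbol, not by measured values, and all 38 were found among the 55242 symbols used. Of the 38, 36 had enough reads to be tested in every comparison. Hs 578T is a triple-negative breast cancer line, and the cells had been transduced with a lentiviral vector to express GFP (control) or exogenous NRF2, the transcription factor of the antioxidant response. Both kinds of cells were kept for 8 h in medium with fetal bovine serum that lacked cystine (Cyss), the oxidized form of cysteine, or that held 0.8 mM l-cystine, which gave 4 groups of 3 libraries: GFP with Cyss, GFP without Cyss, NRF2 with Cyss and NRF2 without Cyss. All groups were derived from a single cell line, so the values describe that line. Neither the labels nor the methods tell whether the 3 libraries of a group came from separate cultures, and p-values measure the spread between libraries, which may be technical.

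Proteins that enter the ER fold there with the help of BiP (encoded by HSPA5) and other chaperones, and acquire disulfide bonds, each made of a pair of cysteines, from the oxidase ERO1 and the protein disulfide isomerases. When unfolded protein accumulates, 3 membrane sensors respond: ATF6 is cut and moves to the nucleus, IRE1 (encoded by ERN1) splices the mRNA of XBP1, and PERK (encoded by EIF2AK3) phosphorylates eIF2α, which favours translation of ATF4. ATF6 and spliced XBP1 switch on chaperones and ERAD through ER stress response elements in promoters. ATF4 is also induced when amino acids are short, through the kinase GCN2 and with no need for the ER sensors. Genes of the ATF6 and XBP1 arms were therefore set beside genes of the amino acid response. Counts on whole genes measure neither the splicing of XBP1 nor the cleavage of ATF6, nor any protein.

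Several of these genes carry known response elements in their promoters. In the 250 bases before the start sites given by RefSeq on GRCh38.p14, an entry was found for 35 of the 38 genes, and both strands were searched for exact letters. ERSE, searched as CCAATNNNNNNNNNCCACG, was present in 8 of the 35 genes (22.9%) against 0.0916% of 27305 genes with an entry. ERSE-II, searched as ATTGGNCCACG, was present in another 3 (8.57%) against 0.0659%. Both elements were defined on ER stress genes that the list includes, so these shares describe the list and test nothing. The sites of 5 genes are shown 5′ to 3′ on the strand that carries the motif, with the fixed letters in capitals and the spacer in lower case.
HSPA5 ERSE (chr9:125241391-125241409): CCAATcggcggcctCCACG
XBP1 ERSE (chr22:28800603-28800621): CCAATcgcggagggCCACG
PDIA6 ERSE (chr2:10812853-10812871): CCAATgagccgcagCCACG
HERPUD1 ERSE-II (chr16:56932025-56932035): ATTGGgCCACG
SDF2L1 ERSE-II (chr22:21642114-21642124): ATTGGtCCACG
The other genes with ERSE were HSP90B1, CALR, CANX, ERO1LB and CRELD2, and the other gene with ERSE-II was HYOU1. None of 29 promoters of the ATF4 list held either motif. The letters TTNCATCA, contained in the C/EBP-ATF response element (CARE) that ATF4 binds, were found in 6 of these 29 (20.7%), in HERPUD1 alone among the ER genes (2.86%), and in 3.89% of all genes with an entry.

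The whole windows are shown for HERPUD1 and XBP1, the genes that rose without Cyss in both cell populations, for HSPA5, the usual marker of ER stress, and for CREB3L2, which rose in NRF2 cells. They are written on the strand of the gene, end at the base before the start site, and carry in capitals each match to the motifs searched, the spacer included.
HERPUD1 (chr16:56931892-56932141, plus strand): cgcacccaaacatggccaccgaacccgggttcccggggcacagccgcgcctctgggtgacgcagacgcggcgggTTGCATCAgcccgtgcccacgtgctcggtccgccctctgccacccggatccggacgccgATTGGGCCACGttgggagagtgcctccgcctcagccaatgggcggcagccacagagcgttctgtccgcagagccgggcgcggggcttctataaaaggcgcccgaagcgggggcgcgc
XBP1 (chr22:28800570-28800819, minus strand): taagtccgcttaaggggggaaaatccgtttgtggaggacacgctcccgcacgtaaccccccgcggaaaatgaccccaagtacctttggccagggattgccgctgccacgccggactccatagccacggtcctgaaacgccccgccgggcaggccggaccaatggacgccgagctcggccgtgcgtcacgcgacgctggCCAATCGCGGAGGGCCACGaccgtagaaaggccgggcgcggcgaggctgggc
HSPA5 (chr9:125241344-125241593, minus strand): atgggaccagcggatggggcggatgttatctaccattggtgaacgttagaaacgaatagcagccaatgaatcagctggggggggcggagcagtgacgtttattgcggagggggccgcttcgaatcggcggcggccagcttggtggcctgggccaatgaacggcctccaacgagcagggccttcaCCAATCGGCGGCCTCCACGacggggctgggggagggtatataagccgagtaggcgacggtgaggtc
CREB3L2 (chr7:138002087-138002336, minus strand): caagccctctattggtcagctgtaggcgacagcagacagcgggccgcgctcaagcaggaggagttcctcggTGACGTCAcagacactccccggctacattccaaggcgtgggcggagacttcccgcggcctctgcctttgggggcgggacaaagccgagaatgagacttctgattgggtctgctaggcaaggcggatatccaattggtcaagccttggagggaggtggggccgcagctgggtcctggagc
HERPUD1 holds the CARE letters at 176 to 169 bases before its start and ERSE-II at 117 to 107 bases. XBP1 holds ERSE at 52 to 34 bases and HSPA5 at 66 to 48 bases. CREB3L2 holds a cAMP response element, TGACGTCA, at 179 to 172 bases, which 2.03% of all genes with an entry also hold. RefSeq lists a second start for XBP1 and for CREB3L2 whose windows held no match. The unfolded protein response element (UPRE), searched as TGACGTGG, was found in HYOU1, DNAJC10 and VCP (8.57% against 0.780% of all genes with an entry). The antioxidant response element (ARE) bound by NRF2, searched as TGACNNNGC, was found in 6 of the 35 (17.1% against 13.2%), and in DNAJC10 and VCP its letters overlap those of UPRE.

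Between 27334061 and 44734611 reads were counted on genes per library. NFE2L2, the gene of NRF2, had 3662 to 4682 normalized counts in the GFP libraries and 6567 to 8448 in the NRF2 libraries, so no library went against its label. A normalized count is the read count scaled to a common library size by TMM, a method that sets aside genes with extreme ratios. The labels call the line epithelial. Of its epithelial markers, EPCAM, KRT19, CLDN3, CLDN7 and ESRP1 stayed at or below 0.0977 CPM (reads scaled to the depth of the library) in each library and CDH1 at or below 0.412, while the mesenchymal VIM (4232 to 5031) and FN1 (23446 to 26816) were abundant. The plasma cell markers MZB1 and IGKC were at or near 0. Other markers of these lists are not given here: KRT8, KRT18 and KRT14 (epithelial), CDH2, ZEB1, SNAI2, TWIST1 and COL1A1 (mesenchymal), SDC1 and JCHAIN (secretory). The values shown therefore describe a part of each list. In a principal component analysis of the most variable expressed genes, GFP without Cyss replicate 3 lay at 5.58 on the first component. The other libraries of that group lay at -5.19 and -2.07, and results that rest on replicate 3 are given with and without it. NRF2 without Cyss replicate 1 had the highest share of reads on no annotated gene, 7.84% against a median of 6.31% over the libraries. The widest difference between replicates was that between this library and replicate 3 of its group.

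Per length of exon, the ER genes spanned a wide range of levels. CALR (calreticulin, a lectin chaperone that stores calcium) was the highest, with group means of 497 to 527 RPKM, which are CPM per kb of annotated exon. HSPA5 followed with 120 to 138, and HSP90B1 (GRP94, the HSP90 of the ER) with 100 to 117. The sensor ERN1 was low, with 0.747 to 1.54. DERL3 (a derlin of ERAD), with 0.0183 to 0.0479, and ERO1LB (a tissue-restricted ERO1 oxidase), with 0.00715 to 0.0105, had at most 8 reads in any library and were not tested. Most exon bases of DERL3 (77.0%) are also exon of SMARCB1, so its reads cannot be assigned with certainty. The other 32 genes lay between 4.61 and 94.0 in every group. Within groups, the 36 tested genes had a median coefficient of variation of 1.78 to 4.73%, and the widest spread was that of ERN1 in GFP cells without Cyss (19.0%).

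The question was next asked whether the ER genes responded to Cyss deprivation in GFP cells. For every comparison, a gene was called when the quasi-likelihood test of edgeR, adjusted by the Benjamini-Hochberg method over all genes tested, gave an adjusted p under 0.1 and the log2 fold change (log2FC) exceeded 0.32 in size. HERPUD1 and XBP1 were called, both upward, which is 2 of the 36 ER genes (5.56%) against 1.57% of all 17452 genes tested. None was called downward, against 0.533% of all genes. By unadjusted p under 0.05, 4 ER genes were higher and 2 lower, beside 3160 of all 17452 genes in either direction. DESeq2's Wald test called 2 up and 0 down, beside 217 and 69 of all genes. The median log2FC of the ER genes was 0.014, beside 0.0015 for all genes. At the adjusted p alone, with no threshold on size, 5 ER genes passed (13.9%, against 5.92% of all genes). Besides the called genes these were HSPA5 and HSP90B1, which were higher, and DNAJC3, which was lower.

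HERPUD1 (HERP, chromosome 16, 56966054 to 56978776 on GRCh37) encodes an ER membrane protein that recruits ERAD components. Its normalized counts were 1533, 1569 and 1581 in GFP cells with Cyss and 2496, 2573 and 2609 without. All libraries without Cyss were above all libraries with Cyss. The log2FC was 0.72 (standard error, SE, 0.0413, adjusted p = 1.71e-07, edgeR), a 1.64-fold rise. In bulk RNA, a change in a part of the cells and a change in the RNA of each cell cannot be told apart.

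XBP1 (chromosome 22, 29190543 to 29196585), the transcription factor spliced by IRE1, had 5202, 5298 and 5343 normalized counts with Cyss and 7566, 7429 and 7672 without. The groups did not overlap, and the libraries within each differed little. The log2FC was 0.52 (SE 0.0353, adjusted p = 9.12e-07, edgeR).

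The chaperones moved less. HSPA5 (chromosome 9, 127997132 to 128003661) had 26101, 26092 and 26918 normalized counts with Cyss and 30334, 30609 and 29938 without. The libraries without Cyss all lay above those with Cyss, yet the log2FC of 0.20 (SE 0.0317, adjusted p = 0.00239, edgeR) was under the fold threshold, and its 95% interval of 0.14 to 0.27 stayed below 0.32. HSP90B1 (chromosome 12, 104323885 to 104347709) had 45465, 45881 and 49560 with Cyss and 51166, 51591 and 51113 without. These groups did not overlap either, with a log2FC of 0.13 (SE 0.0367, adjusted p = 0.0750, edgeR). The other chaperones of this role, HYOU1 (an HSP110-type partner of BiP), CALR and CANX (calnexin), had a log2FC between -0.05 and 0.07.

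Of the sensors, ATF6 (chromosome 1, 161736088 to 161947364) had 3976, 3903 and 4019 normalized counts with Cyss and 4223, 4145 and 3867 without. The ranges overlapped (log2FC 0.05, standard error 0.0408, adjusted p = 0.599, edgeR). ERN1 (chromosome 17, 62116440 to 62208179) had 544, 501 and 516 normalized counts with Cyss and 544, 532 and 737 without. Replicate 3 without Cyss stood apart from the other libraries of its group, and the ranges overlapped. The log2FC was 0.22 (SE 0.104, adjusted p = 0.283, edgeR), and 0.05 without that library. CREB3L2 (BBF2H7, an ER-anchored factor of the ATF6 kind that serves secretion, chromosome 7, 137559725 to 137686832) had 9233, 8579 and 8924 with Cyss and 9080, 8703 and 9239 without, which overlapped throughout (log2FC 0.02). Its relative CREB3 had a log2FC of -0.07.

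The BiP cofactors included the gene with the most negative value. DNAJC3 (p58IPK, a J-domain cofactor of BiP that also inhibits PERK, chromosome 13, 96329393 to 96447242) had 3047, 2670 and 2836 normalized counts with Cyss and 2462, 2466 and 2367 without. All libraries without Cyss were below those with Cyss, with a log2FC of -0.22 (SE 0.0492, adjusted p = 0.0249, edgeR), under the fold threshold. The other 4 cofactors, DNAJB9, DNAJB11, DNAJC10 and SDF2L1, lay between -0.02 and 0.03.

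No gene of the remaining roles was called in GFP cells. The 5 tested genes of disulfide formation (P4HB, PDIA3, PDIA4 and PDIA6, which are disulfide isomerases, and the oxidase ERO1L) lay between -0.06 and 0.07. In ERAD, HERPUD1 was the exception among 9 tested genes. EDEM1 (chromosome 3, 5229331 to 5261643), a lectin that hands misfolded glycoproteins to ERAD, had 3725, 3453 and 3654 normalized counts with Cyss and 3414, 3387 and 3490 without, which overlapped (log2FC -0.07, adjusted p = 0.400, edgeR). The other 7, EDEM2, OS9, SEL1L, the ubiquitin ligase SYVN1, DERL1, DERL2 and the ATPase VCP, lay between -0.07 and 0.06. MANF and CRELD2, secreted proteins that ER stress is known to induce, had a log2FC of 0.02 and 0.06. The translocon genes SEC61A1, SEC61B and SSR1 lay between -0.11 and 0.01, and WFS1 (wolframin, of ER calcium) and UFM1 (a ubiquitin-like modifier) at 0.00 and -0.07. Of the 34 genes not called, 32 had a 95% interval within 0.32 of 0. The exceptions were DNAJC3 and ERN1.

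In NRF2 cells, 4 of the 36 ER genes (11.1%) rose without Cyss, against 6.81% of the 17266 genes tested. They were HERPUD1, XBP1, ERN1 and CREB3L2. None fell, against 5.14%. By unadjusted p under 0.05, 9 were higher and 4 lower, beside 5887 of all 17266 genes in either direction. DESeq2 called 4 up and 0 down, beside 1006 and 630 of all genes. The median log2FC was 0.026, beside -0.012 for all genes. With no threshold on size, 11 ER genes (30.6%) had an adjusted p under 0.1, 8 of them higher and 3 lower, against 29.0% of all genes. That share was close to the background.

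HERPUD1 had 1605, 1615 and 1622 normalized counts in NRF2 cells with Cyss and 2382, 2507 and 2519 without. The groups were far apart and each was narrow. The log2FC was 0.62 (SE 0.0460, adjusted p = 2.00e-07, edgeR). XBP1 had 5009, 4977 and 5079 with Cyss and 6620, 7515 and 7492 without. Replicate 1 without Cyss was the lowest of its group and still above all libraries with Cyss. The log2FC was 0.52 (SE 0.0492, adjusted p = 2.09e-06, edgeR).

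ERN1 had 489, 485 and 469 normalized counts with Cyss and 966, 939 and 1063 without. Each library without Cyss was above each library with Cyss, and the lowest and the highest raw counts over all 12 libraries were 403 and 1068 reads. The log2FC was 1.04 (SE 0.0642, adjusted p = 2.98e-08, edgeR), a 2.06-fold rise. Of the exon length of ERN1, 4.62% is shared with other annotated genes, and the counting did not use strand.

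CREB3L2 had 8746, 8745 and 8551 normalized counts with Cyss and 12270, 10947 and 11147 without. Replicate 1 without Cyss was the highest, and the groups did not overlap. The log2FC was 0.40 (SE 0.0525, adjusted p = 5.47e-05, edgeR). EDEM1 had 3521, 3461 and 3439 with Cyss and 4324, 4086 and 3870 without, with no overlap and a log2FC of 0.24 (SE 0.0530, adjusted p = 0.00446, edgeR) that was under the fold threshold.

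In NRF2 cells the 5 chaperones had a log2FC between -0.0020 (CANX) and 0.18 (HYOU1). None was called, against 6.81% of all genes upward and 5.14% downward. HSPA5 had 25552, 27076 and 27421 normalized counts with Cyss and 26231, 29254 and 29808 without. Replicate 1 without Cyss lay within the range of the libraries with Cyss, and replicates 2 and 3 lay above it. The log2FC was 0.09 (SE 0.0488, adjusted p = 0.190, edgeR), and 0.14 (adjusted p = 0.0143, edgeR) without that replicate. HSP90B1 had 41904, 44544 and 45480 with Cyss and 41891, 46308 and 47413 without, again with replicate 1 as the lowest of the group. Replicates 2 and 3 without Cyss lay above all its libraries with Cyss. Its log2FC was 0.04, which became 0.088 without replicate 1 without Cyss, 0.012 without replicate 1 with Cyss, 0.025 and 0.018 without replicates 2 and 3 without Cyss, 0.065 without replicate 3 with Cyss, and -0.017 with scaling by library size only. HYOU1 had 6466, 6423 and 6614 with Cyss and 7253, 7318 and 7483 without. It was higher by 0.18 (SE 0.0415, adjusted p = 0.00594, edgeR), under the fold threshold.

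ATF6 had 3801, 3763 and 3760 normalized counts with Cyss and 3721, 3914 and 3879 without, which overlapped (log2FC 0.03, adjusted p = 0.700, edgeR). DNAJC3 had 2864, 2781 and 2684 with Cyss and 3192, 2892 and 2679 without. The library without Cyss that was lowest lay below all those with Cyss, and the log2FC was 0.08 (adjusted p = 0.430, edgeR). Among the other cofactors, DNAJB9 (ERdj4) was higher by a log2FC of 0.21 and SDF2L1 was at -0.24, both with an adjusted p under 0.1 and under the fold threshold. Disulfide genes lay between -0.03 and 0.12, the secreted MANF and CRELD2 at 0.09 and -0.11, the translocon between -0.13 and -0.00033, WFS1 at -0.24 and UFM1 at 0.08. The 8 ERAD genes other than HERPUD1 lay between -0.09 and 0.24. Of the 32 genes not called, 28 had a 95% interval within 0.32 of 0.

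**Figure D1:**
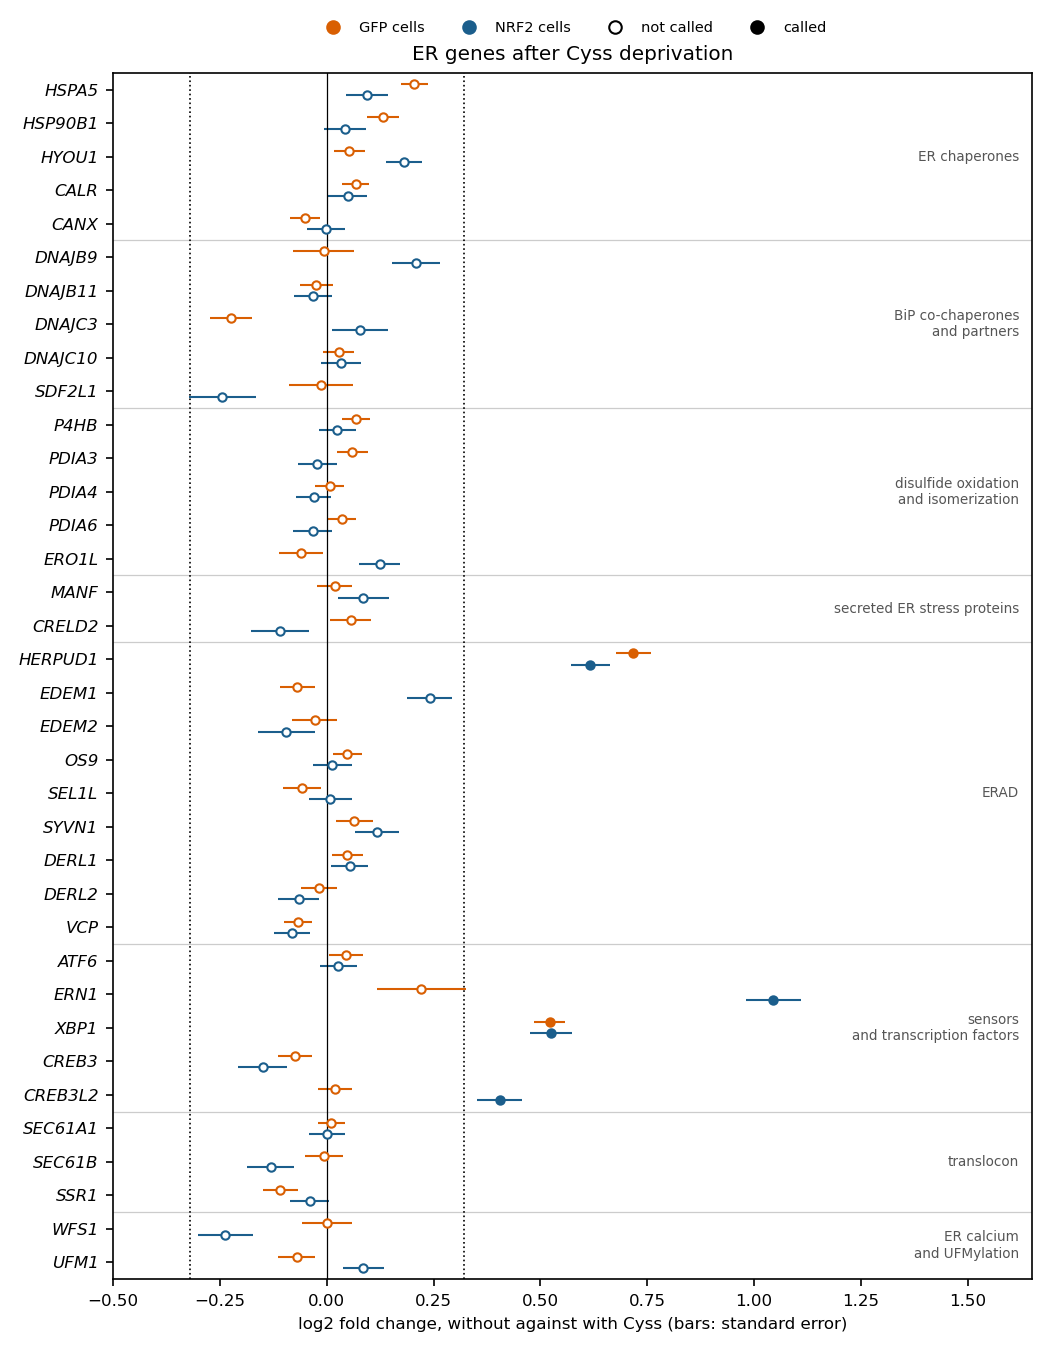
Log2 fold change without against with Cyss of the 36 tested ER genes, grouped by role, with standard error bars, in GFP cells (orange) and NRF2 cells (blue). Filled points are called genes and dotted lines mark 0.32 in either direction: HERPUD1 and XBP1 lie beyond the line in both cell populations, ERN1 (1.04) and CREB3L2 (0.40) in NRF2 cells, and the chaperones, disulfide, translocon and secreted genes within the lines.

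Of the 11 genes with ERSE or ERSE-II, 10 were tested. In GFP cells both called genes, HERPUD1 and XBP1, were among these 10, and in NRF2 cells the same genes were, while ERN1 and CREB3L2 were not. The rest of the 10, HSPA5 and HSP90B1 among them, were called in neither population. Over all genes, 1.57% rose in GFP cells and 6.81% in NRF2 cells. Whether the motifs bear on the response was not tested. The median log2FC of the 10 was 0.062 in GFP cells (0.014 for the 36 ER genes) and 0.046 in NRF2 cells (0.026). ERN1 held none of the 6 motifs searched in its window, and CREB3L2 held the cAMP response element only. The window is short, and elements outside it were not looked for.

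The ER genes were set beside 35 genes of the ATF4 amino acid response and 58 other ER genes. Both lists were chosen from general knowledge, with earlier results of these data known. In GFP cells, 31 of 34 tested ATF4 genes rose (91.2%, against 1.57% of all genes), with a median log2FC of 0.70. In NRF2 cells 32 of 35 rose (91.4%, against 6.81%), with a median of 0.72. None fell, against 0.533% of all genes in GFP cells and 5.14% in NRF2 cells. A rise of ATF4 genes was known from an earlier analysis of these counts when the list was chosen, and their count serves only as a yardstick for the ER genes. CHAC1 (a glutathione-degrading enzyme) had a log2FC of 2.10 in GFP and 1.81 in NRF2 cells, ASNS (asparagine synthetase) 1.37 and 1.17, TRIB3 (a pseudokinase) 1.03 and 0.84, and ATF4 itself 0.84 and 0.72. PPP1R15A (GADD34, which reverses the phosphorylation of eIF2α) rose by 0.39 and 0.83. DDIT3 (CHOP) rose by 0.66 in GFP cells and had a log2FC of 0.32 in NRF2 cells, just under the threshold.

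Against the mean of the GFP libraries with Cyss, the median of the ER genes in each single library lay between -0.040 and 0.017 on the log2 scale, with and without Cyss alike. The median of the ATF4 genes lay between -0.032 and 0.012 in the 6 libraries with Cyss and between 0.61 and 0.72 in the 6 without. The ranges of the ER genes with and without Cyss overlapped, and those of the ATF4 genes were far apart. As the rise of ATF4 genes was known beforehand, this contrast describes the lists and tests nothing.

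Of the other ER genes, 1 of 57 tested rose in GFP cells (1.75%, against 1.57% of all genes) and none fell (against 0.533%). It was CREB3L4, an ER-anchored factor of the CREB3 family (log2FC 0.55, standard error 0.120). None was called in NRF2 cells, against 6.81% of all genes upward and 5.14% downward. The median log2FC of the other ER genes was -0.0050 in GFP and -0.014 in NRF2 cells. The group held the sensor PERK itself: EIF2AK3 had a log2FC of -0.10 in GFP and -0.17 in NRF2 cells, ATF6B 0.08 and -0.05, the protease MBTPS1 that cuts ATF6 0.03 and 0.12, and CREB3L1 0.09 and 0.02, none of them called.

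NRF2 cells were next compared with GFP cells in the same medium. With Cyss, none of the 36 ER genes was called in either direction by edgeR, against 1.36% of all genes upward and 0.201% downward. DESeq2 called none, beside 155 up and 15 down of all genes. By unadjusted p under 0.05, 3 were higher and 0 lower, beside 3321 of all 17449 genes in either direction. P4HB (log2FC 0.12) and WFS1 (0.30) had an adjusted p under 0.1 with no threshold on size (5.56%, against 6.43% of all genes). WFS1, the nearest to a call, had 935, 1047 and 980 normalized counts in GFP cells and 1265, 1205 and 1141 in NRF2 cells. The groups did not overlap (adjusted p = 0.00604, edgeR), and the call was made without GFP with Cyss replicate 2 (log2FC 0.34) or NRF2 with Cyss replicate 3 (0.34).

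Without Cyss, 2 of 36 (5.56%) were higher in NRF2 cells (5.98% of all genes upward) and none lower (4.09% downward). By unadjusted p under 0.05, 8 were higher and 3 lower, beside 5962 of all 17297 genes in either direction. DESeq2 called 2 up and 0 down, beside 901 and 432 of all genes. With no threshold on size, 9 passed (25.0%, against 28.8% of all genes), 8 of them higher. ERN1 had a log2FC of 0.71 (SE 0.106, adjusted p = 0.00109, edgeR), and the 3 libraries of NRF2 cells were above the 3 of GFP cells. The value was 0.88 without GFP without Cyss replicate 3. CREB3L2 had a log2FC of 0.35 (SE 0.0563, adjusted p = 0.00171, edgeR), again with no overlap. Its call was lost without NRF2 without Cyss replicate 1, where the log2FC was 0.29, and with scaling by library size only, where the log2FC was 0.3157. The uncalled genes ranged from HSP90B1 at -0.18 to DNAJB9 at 0.29. DNAJB9 was called (0.35) without GFP without Cyss replicate 3, and DNAJC3 (0.33) without NRF2 without Cyss replicate 3.

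Whether the response to Cyss deprivation differed between NRF2 and GFP cells was put to an interaction test over the 12 libraries, called at an adjusted p under 0.1. Of the 36 genes, 4 (11.1%) responded more positively in NRF2 cells (8.97% of 17674 genes in that direction) and none more negatively (6.13%). By unadjusted p under 0.05, 8 were positive and 1 negative, beside 4376 of all 17674 genes in either direction. DESeq2 called 4 and 0, beside 1379 and 733 of all genes. The 4 were ERN1 at 0.82 (SE 0.132, adjusted p = 0.00111, edgeR), CREB3L2 at 0.38 (SE 0.0670, 0.00193), EDEM1 at 0.31 (SE 0.0670, 0.00786) and DNAJC3 at 0.30 (SE 0.0863, 0.0356). ERN1 reached 0.99 without GFP without Cyss replicate 3. DNAJC3 was no longer called without NRF2 with Cyss replicate 3 (0.27, adjusted p = 0.105, edgeR). With each library left out in turn, CREB3L2 ranged from 0.32 to 0.42, EDEM1 from 0.26 to 0.36 and DNAJC3 from 0.22 to 0.37. CREB3L2 and EDEM1 stayed called throughout.

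These 4 genes came to the interaction in different ways. ERN1 and CREB3L2 rose in NRF2 cells, with a log2FC of 0.22 and 0.02 in GFP cells. DNAJC3 was lower without Cyss in GFP cells and overlapped between media in NRF2 cells, and EDEM1 was higher in NRF2 cells by less than the fold threshold. HERPUD1 and XBP1 had an interaction of -0.10 (95% interval -0.21 to 0.012) and 0.0036 (-0.12 to 0.12), and 0.32 lay outside both intervals. The interaction of HSPA5 was -0.11 (-0.23 to 0.0062), and -0.064 without NRF2 without Cyss replicate 1. Among the other ER genes, 5 of 57 had a positive interaction (8.77%, against 8.97% of all genes) and 4 a negative one (7.02%, against 6.13%). These shares were near those of all genes. The positive ones were led by EDEM3 (0.43), a relative of EDEM1.

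Genes with longer exons had on the whole more positive interactions. Over all 14783 genes with an annotated length, Pearson's r between log2 exon length and the interaction was 0.138 (Spearman's rho 0.231), and over the 36 ER genes it was 0.319 (rho 0.279). These are correlations across genes, which share the same 12 libraries and are not independent. The 4 called genes had 5590 (DNAJC3), 6737 (EDEM1), 8807 (CREB3L2) and 19153 (ERN1) bases of exon. Of the 18 shorter ER genes (1059 to 6530 bases), DNAJC3 among them, 6 had a positive interaction, and of the 18 longer, 10. The part of length in the interaction of these genes was not tested.

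**Figure D2:**
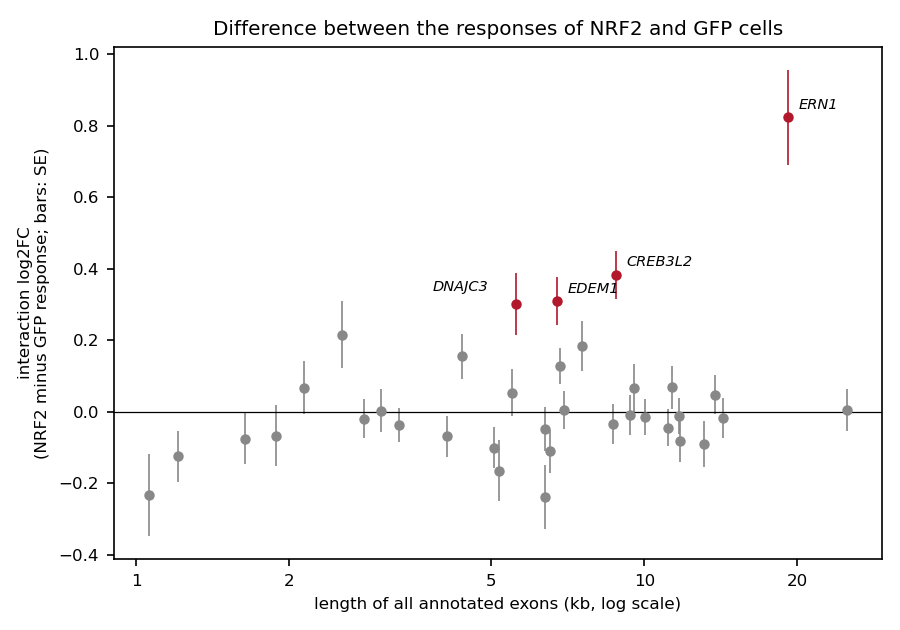
Interaction log2 fold change (response of NRF2 cells minus response of GFP cells, with standard error bars) of the 36 ER genes against the length of their annotated exons in kb on a log axis. The 4 called genes (red) run from 5590 bases of exon (DNAJC3, among the 18 shorter genes) to 19153 (ERN1). ERN1 stands highest at 0.82, and the genes without a call lie between -0.24 and 0.22.

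The responses of the 36 ER genes in GFP and in NRF2 cells, which come from separate libraries, had a Pearson's r of 0.609 (rho 0.403). Among the 30 genes not called in any comparison, r was 0.299 (rho 0.394). For 34 ATF4 genes r was 0.897 (rho 0.826), and for 17048 genes tested in both it was 0.317. The genes share the scaling of their libraries, and the values are descriptions.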

How the data were processed

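The authors sequenced mRNA single end from 12 libraries, mapped the reads to hg19 (GRCh37) and counted them on gene exons without regard to strand. The tools named in the submitters' processing notes are FastQC, Bowtie, TopHat2 2.1.0 and HTSeq 0.11.2. The gene annotation behind the counts is not given in the sources used here. The deposited values are raw counts per gene symbol, not normalized, for 55765 symbols and 5 lines of unassigned reads (15.9 to 17.1% of the reads in each file), which were left out. The 523 rRNA symbols, with 0.304 to 0.366% of the reads on genes, were removed as in the study's methods. Replicates differed by more than sampling noise (chi-square per degree of freedom from 2.11 to 11.7), so none was a copy.

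Pairs of groups were compared on their 6 libraries with edgeR 4.0.16 (quasi-likelihood test, TMM scaling, Benjamini-Hochberg adjustment over all genes tested) in R 4.3.3, with DESeq2 1.42.0 as an alternative. Genes were tested where the mean normalized count of either group reached 10. The fold and p thresholds follow the study's figure legends, and an adjusted p under 0.05 was an alternative. The interaction used all 12 libraries. Values given as mean ± SD or by library are counts scaled to a common library size. Positions and exon lengths are from GENCODE 44 on GRCh37, in which 2 ER genes (ERO1L and ERO1LB) have newer names. Reads per kb use all annotated exons of a gene. Intervals are 95% normal intervals from the fitted standard errors (SE). Figures were drawn with matplotlib 3.10.9 under Python 3.11.15.

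The ER genes, the other lists, the thresholds and the alternatives were chosen with earlier results of these data known. The genes given by library are HSPA5, HSP90B1, XBP1, ATF6, ERN1 and HERPUD1 and all other ER genes called in any comparison or in the interaction. WFS1 and HYOU1 were added by library after their values were seen, and so was CREB3L4 of the other ER genes. Of the ATF4 list 6 genes are named, and of the other ER genes 5 and, per comparison, at most 3 called genes in each direction. Alternatives were other scalings, filters and thresholds, DESeq2's Wald test, rRNA genes kept, all 12 libraries in 1 fit, the replicate number as a block, and each library left out in turn. The procedure was tested on simulated data.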

Additional observations from a re-analysis of the deposited data

Results flagged for a closer look

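The interaction in edgeR's quasi-likelihood test on all 12 libraries was called for 4 of 36 ER genes. All 4 were positive (11.1%, against 8.97% of all genes), and none was negative (against 6.13%). These shares were near those of all genes, so they set no trait of the list apart. The interaction log2FC was 0.82 for ERN1, 0.38 for CREB3L2, 0.31 for EDEM1 and 0.30 for DNAJC3, each with the response of NRF2 cells the more positive. Among the other ER genes named by the rule, it was 0.43 for EDEM3, 0.31 for SSR3 (a translocon-associated subunit) and 0.20 for LMAN1 (a cargo receptor of ER export), and it was -0.80 for CREB3L4, -0.23 for SSR4 and -0.22 for UFSP2 (a protease of UFM1). Of the ATF4 genes named, PPP1R15A had 0.44, DDIT3 -0.35, CHAC1 -0.29 and ASNS -0.20.

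In GFP cells, normalized counts of CREB3L4 were 84.6, 101 and 87.9 in medium with Cyss and 149, 130 and 121 in medium lacking it. In NRF2 cells they were 98.2, 89.5 and 108 and then 79.3, 71.6 and 96.5. It was higher without Cyss in GFP cells with no overlap, and in NRF2 cells the ranges overlapped.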

How the results depend on the processing

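Over 243 alternative values of the 15 counts and medians of ER genes, 219 kept their place and 24 moved, and no log2FC that was itself called in a comparison changed sign there. HERPUD1 and XBP1 in both cell populations and ERN1 and CREB3L2 in NRF2 cells were called under every alternative tried. With no fold threshold, 4 genes were higher and 1 lower in GFP cells, 8 and 3 in NRF2 cells, 2 higher in NRF2 than GFP cells with Cyss, and 8 higher and 1 lower without. With library size only, the median log2FC was -0.033 in NRF2 cells and -0.065 for the interaction, which then had 3 negative calls (HSPA5, HERPUD1 and WFS1), and 1 gene was higher in NRF2 than GFP cells without Cyss. With no filter on low counts, the median was -0.0037 in GFP cells and -0.034 for NRF2 against GFP with Cyss, with ERO1LB and DERL3 included.

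Leaving out a library gave 2 higher genes in GFP cells throughout, 4 higher and 0 to 1 lower in NRF2 cells (SDF2L1, -0.33, without NRF2 with Cyss replicate 2), 0 to 1 higher in NRF2 than GFP cells with Cyss and 1 to 3 without. The interaction had 3 to 6 positive and 0 to 1 negative calls, the latter WFS1 (from -0.30 to -0.28) or SDF2L1 (-0.32). Without GFP without Cyss replicate 3 there were 6 positive ones, DNAJB9 and HYOU1 being added. Positive calls were also added for DNAJB9 and ERO1L without GFP with Cyss replicate 2. The same held for ERO1L and UFM1 without NRF2 without Cyss replicate 3. Medians ranged from 0.0088 to 0.028 in GFP cells, 0.013 to 0.036 in NRF2 cells, -0.026 to -0.0032 for NRF2 against GFP with Cyss, -0.042 to -0.0020 without and -0.024 to 0.0066 for the interaction.

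Deviations of libraries of different groups that carry the same replicate number were weakly correlated, from -0.16 to 0.25 over 13528 genes. In no comparison did every correlation pass 0.1. The main fits therefore did not pair libraries by number, but with 3 libraries per group these correlations cannot show that no pairing exists. Over all genes, the replicate block raised the interaction calls from 1585 positive and 1084 negative to 1866 and 1307. Fitted as a replicate block, the numbers gave 1 negative interaction in place of 0 (WFS1) and left the other counts within 1.5 times. The causes of these shifts were not tested. At this depth ERO1LB and DERL3 could not be tested.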
